A study of Homo sapiens with 12 samples.

Results

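The 10 genes BCL6, IRF8, BACH2, SPIB, IRF4, PRDM1, PAX5, EBF1, POU2F2 and POU2AF1 encode transcription factors, and in the case of POU2AF1 a coactivator, that set the stage at which a B cell rests. They were picked by name from the regulators of germinal centre, activated and plasma cell stages, with earlier results of these data known, and all 10 were found among the 25369 gene rows of each table. Their transcripts were followed in 2 established lines of human diffuse large B cell lymphoma: TMD8 is labelled as the activated B cell type (ABC), and OCI-Ly7 as the germinal centre type (GCB). All 6 groups carried a guide RNA against PRMT5, the main symmetric arginine methyltransferase, under control of doxycycline. The day 0 group of each line had no days of doxycycline, and the other groups were kept in 20 ng/ml for 3 or 6 days, with 2 libraries per group and 12 in all. No group with doxycycline and another guide was analysed here, so an effect of the guide and one of doxycycline or of time in culture cannot be told apart. Whether each line was 1 clone is not given in the sources used here, and nothing says that the 2 libraries of a group came from separate cultures, so p-values measure only the spread between these libraries, which may be technical.

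BCL6 is the repressor that holds a B cell in the germinal centre programme, with IRF8 beside it, and BACH2 delays the exit from it. IRF4 acts by dose: at high level, with PRDM1 (Blimp-1), it drives the plasma cell programme, and SPIB marks lymphomas of the activated type. PAX5 and EBF1 keep B cell identity and are shut off in plasma cells, and POU2F2 (Oct-2) and its coactivator POU2AF1 (OCA-B) act on octamer sites of immunoglobulin genes. BCL6 and PRDM1 are known to repress each other, and PRDM1 is known to repress PAX5.

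Promoters of the genes on which the results turn are shown first, because BCL6 is known to bind its own promoter. RefSeq promoter windows on GRCh38.p14, which is not the build of the expression files, matched 9 of the 10 genes in 12 windows, with POU2AF1 unmatched. Each window runs from 250 bases before to 50 bases after an annotated start, and only the bases before it are printed, 5′ to 3′ on the strand of the gene. Capitals mark the letters TTCNNNGAA, a BCL6-type motif that is its own reverse complement; the capitals that end the first sequence are the start of a match that runs on past the start site.
BCL6, chr3:187745469-187745718, minus strand: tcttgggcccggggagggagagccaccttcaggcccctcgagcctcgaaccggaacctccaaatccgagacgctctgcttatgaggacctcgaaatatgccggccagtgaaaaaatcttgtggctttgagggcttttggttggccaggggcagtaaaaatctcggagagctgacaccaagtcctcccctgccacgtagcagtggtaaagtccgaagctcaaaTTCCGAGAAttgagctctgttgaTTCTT
PAX5, chr9:37034269-37034518, minus strand: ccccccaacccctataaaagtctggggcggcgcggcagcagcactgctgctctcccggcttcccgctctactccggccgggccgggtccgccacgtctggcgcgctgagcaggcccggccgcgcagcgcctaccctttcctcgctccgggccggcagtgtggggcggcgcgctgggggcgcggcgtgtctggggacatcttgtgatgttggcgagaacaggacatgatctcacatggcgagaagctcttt
POU2F2, chr19:42132447-42132696, minus strand: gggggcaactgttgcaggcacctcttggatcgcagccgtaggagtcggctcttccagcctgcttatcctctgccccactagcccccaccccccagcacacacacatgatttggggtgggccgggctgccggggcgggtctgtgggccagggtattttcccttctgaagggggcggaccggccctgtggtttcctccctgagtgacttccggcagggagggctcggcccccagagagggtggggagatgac

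The first BCL6 window held 4 matches to this motif, which are shown with 4 bases on each side and numbered from the start site, with -1 next to 1. A match was present in 7.66% of the 35116 windows of all genes, and 4 or more were present in 7 of them (0.0199%). The second BCL6 window and the windows of PAX5 and POU2F2 held none.
BCL6, -28 to -20: caaaTTCCGAGAAttga
BCL6, -5 to 4: ttgaTTCTTAGAActgg
BCL6, 11 to 19: ggggTTCTTAGAAgtgg
BCL6, 37 to 45: aagtTTCTAGGAAaggc

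The other motifs searched on both strands were the octamer ATGCAAAT (1.77% of windows), the IRF element (3.57%), the ETS-IRF composite (2.82%) on which SPIB and IRF4 or IRF8 can meet, an EBF1-type motif (1.21%) and the AP-1 and BACH-type motif TGANTCA (7.71%). In the 12 windows of the 9 matched genes, 3 matches were found, with capitals marking the motif, and none of the octamer, IRF element or EBF1-type motif. A match describes the letters of the window and is not a bound site.
EBF1, ETS-IRF composite, -33 to -24: ggctGGAAGTGAAAgtgt
PRDM1, second window, AP-1 and BACH-type, -42 to -36: ccagTGACTCAaagc
BCL6, second window, AP-1 and BACH-type, -77 to -71: ggagTGAGTCAttgc

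Levels are FPKM, fragments scaled to transcript length and library size, so they may be compared between genes. Each library summed to 397477 to 467844 FPKM with 10092 to 11021 genes at 1 FPKM or more; the absolute depth is unknown. The relative depth, read from the smallest values, went in TMD8 from 1 and 1.17 at day 0 to 0.54 and 0.732 at day 3, then stood at 0.611 and 0.57 on day 6. In OCI-Ly7 it went to 0.807 and 0.774 at day 6 from 1 and 1.29. The precursor of ribosomal RNA, RNA45S5, was higher at the later days, going in TMD8 from 5222 and 7950 FPKM before treatment to 20066 and 20452, then 20280 and 17581. In OCI-Ly7 it stood at 11163 and 10374, then 14278 and 20542, then 16130 and 20185. Values are therefore given as deposited and after median-ratio scaling, which divides each library by the middle of its gene-wise ratios to the line's geometric mean. Among all tested genes, the middle log2 change as given for TMD8 was -0.27 (day 3) and -0.31 (day 6), and for OCI-Ly7 -0.12 and -0.13; after scaling it lay between -0.01 and 0.01. The part of RNA45S5 or depth in the changes below was not tested. In bulk RNA, fewer cells of a kind and less RNA per cell cannot be told apart.

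The labelled cell types were checked against markers. B cell markers summed to 1278 to 1647 FPKM per library in TMD8 and 1791 to 2561 in OCI-Ly7. T and NK cell markers summed to 0.677 to 3.00 FPKM per library over 10 genes and myeloid markers to 0.127 to 0.383 over 10 genes, with CD3D, CD3E, CD3G, CD2, LYZ, MPO, S100A8 and S100A9 listed at 0 throughout. Of the 10 stromal and epithelial markers, CDH1 averaged 17.8 FPKM in TMD8 at day 0, and EPCAM (5.53) and COL1A1 (4.33) were present in OCI-Ly7. PRMT5 itself stood in TMD8 at 64.8 and 60.5, then 41.3 and 42.0, then 49.6 and 54.7 FPKM, and in OCI-Ly7 at 37.9 and 46.9, then 29.3 and 32.1, then 21.0 and 19.2. At day 6 it changed by -1.04 in OCI-Ly7 (-0.89 after scaling, adjusted p = 0.0284) and by -0.26 in TMD8, which turned to 0.10 after scaling (adjusted p = 0.201).

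Before doxycycline, 5 of the 10 factors were higher in each line. IRF4, PRDM1 and SPIB, of the activated and plasma cell side, were 5.54, 2.55 and 2.37 times as high in TMD8, and EBF1 and PAX5 were 1.56 and 1.40 times as high. POU2AF1, BCL6, IRF8 and POU2F2 were 25.0, 3.42, 1.66 and 1.16 times as high in OCI-Ly7, and BACH2 27.1 times. For each of the 10 the libraries of the lines did not overlap. Overlap was not counted over all rows, so this cannot be read as particular to these factors. The BACH2 ratio rests on values close to 0 in TMD8 (0.0125 and 0.0360 FPKM). These levels come from separate tables with 2 libraries each and were not tested.

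Within TMD8 at day 0 the order of mean FPKM ran IRF4 (442), SPIB (244), IRF8 (45.3), POU2F2 (28.2), BCL6 (12.8), EBF1 (11.4), PAX5 (10.4), PRDM1 (6.87), POU2AF1 (1.93) and BACH2 (0.0242). No neighbours in this order had overlapping libraries. IRF4 ranked 135 among all rows of TMD8. In OCI-Ly7 the order ran SPIB (103), IRF4 (79.9), IRF8 (75.0), POU2AF1 (48.3), BCL6 (43.7), POU2F2 (32.8), PAX5 (7.46), EBF1 (7.35), PRDM1 (2.70) and BACH2 (0.656). There, SPIB overlapped IRF4, and PAX5 overlapped EBF1. The lowest factor was BACH2 in both lines.

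**Figure D1:**
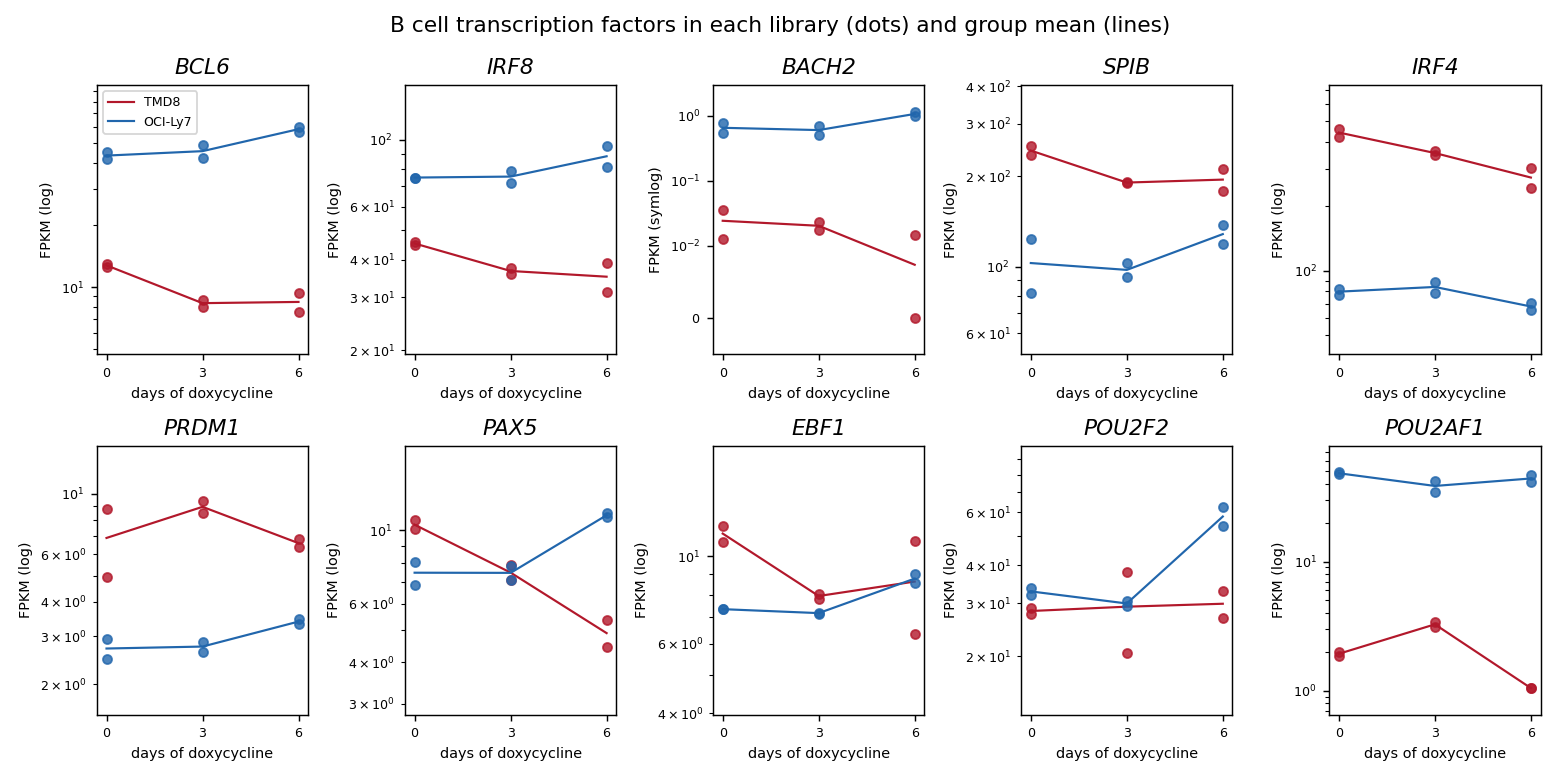
Level of each transcription factor (FPKM, log axis; for BACH2 an axis that is linear near 0) against days of doxycycline. Dots are the 2 libraries per day, lines join group means, red is TMD8 and blue is OCI-Ly7; PAX5 falls from 10.7 and 10.1 to 4.45 and 5.35 FPKM in TMD8 and climbs to 11.3 and 11.0 in OCI-Ly7.

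At day 6 against day 0, with all libraries in the fit, every factor that passed the test was lower in TMD8 or higher in OCI-Ly7, as given and after median-ratio scaling. Changes below are on the log2(FPKM + 1) scale, which understates the change of low genes, with p-values adjusted by Benjamini and Hochberg over all tested genes in limma. Of the 9 factors above the filter (a mean of 1 FPKM over the line; BACH2 was below it in both lines), 6 passed in TMD8 at day 6, all lower, where 55.6% of all 10456 tested genes passed and 51.7% passed as lower. After scaling, 3 of the 9 passed, again all lower, against 28.9% of all genes and 13.5% as lower. In OCI-Ly7 at day 6, 2 of the 9 passed, both higher, against 11.4% of 11016 genes and 1.98% as higher; after scaling 5 of the 9 passed, all higher, against 14.8% and 6.71%. For TMD8 the median change of the 9 was -0.41 beside -0.31 for all genes, and for OCI-Ly7 0.25 beside -0.13. After scaling these medians were -0.08 in TMD8 and 0.38 in OCI-Ly7.

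Some calls as given rest on the filter. With all 25369 rows tested, the day 6 calls of BCL6 (adjusted p = 0.0624), IRF8 (adjusted p = 0.158) and SPIB (adjusted p = 0.132) in TMD8 and of PAX5 (adjusted p = 0.127) and POU2F2 (adjusted p = 0.0923) in OCI-Ly7 were lost. So were the day 3 calls in TMD8 of BCL6 (adjusted p = 0.0935), SPIB (adjusted p = 0.146), PAX5 (adjusted p = 0.116) and POU2AF1 (adjusted p = 0.0716). From day 3 to day 6 in TMD8, PAX5 (adjusted p = 0.170) and POU2AF1 (adjusted p = 0.0657) were lost, as was IRF8 in the day 6 difference between the lines (adjusted p = 0.0737). Scaling every library to an equal sum ended the calls in TMD8 of IRF8 and SPIB at day 6 (adjusted p = 0.103 in each) and of BCL6, PAX5, POU2AF1 and SPIB at day 3 (adjusted p of 0.0675 to 0.511).

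**Figure D2:**
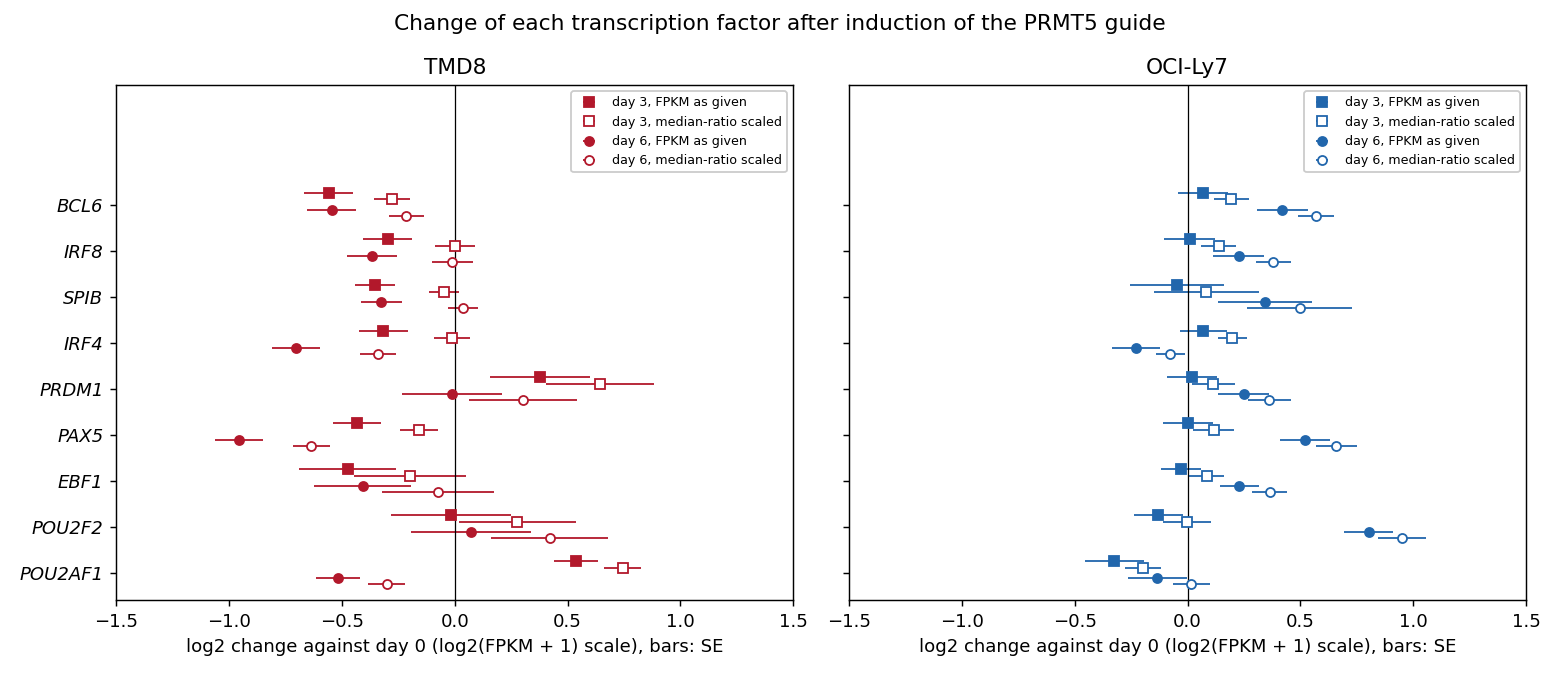
Log2 change of the 9 tested factors against day 0 on the log2(FPKM + 1) scale, with bars of 1 SE from limma; squares are day 3, circles day 6, filled marks FPKM as given and open marks after median-ratio scaling. In TMD8 PAX5 lies furthest to the left at day 6 (-0.96), and in OCI-Ly7 POU2F2 furthest to the right (0.80).

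BCL6 stood in TMD8 at 12.9 and 12.6 FPKM at day 0, then 8.67 and 8.02 (day 3), then 7.56 and 9.36 (day 6). In OCI-Ly7 it stood at 45.4 and 41.9, then 49.3 and 42.5, then 57.2 and 60.3. Both treated days lay below day 0 in TMD8 without overlap, and in OCI-Ly7 day 6 alone lay above day 0 without overlap. The change in TMD8 was -0.56 (SE 0.109, adjusted p = 0.0220) at day 3 and -0.55 (adjusted p = 0.00898) at day 6. After scaling it was -0.28 (adjusted p = 0.262) and -0.21 (adjusted p = 0.0953), so neither passed with all libraries in the fit. The scaled day 6 change ranged from -0.30 to -0.12 when a library was left out. In OCI-Ly7 the day 6 change was 0.42 (adjusted p = 0.0653) as given and 0.57 (SE 0.0788, adjusted p = 0.0268) after scaling. The day 6 call in TMD8 was lost without the first day 0 library (adjusted p = 0.0576). The scaled call in OCI-Ly7 passed in 0 of 6 fits that left out a library, with changes of 0.51 to 0.63 and adjusted p of 0.0537 to 0.157. The day 3 call in TMD8 passed in 2 of 6, those without a day 6 library, and otherwise gave adjusted p of 0.0705 to 0.136.

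IRF8 stood in TMD8 at 44.7 and 45.8 FPKM, then 36.0 and 37.4, then 31.1 and 39.1. OCI-Ly7 held it at 75.0 in both day 0 libraries, then 79.0 and 72.0, then 95.1 and 81.3. The groups of day 6 and day 0 did not overlap in either line. IRF8 changed by -0.37 in TMD8 at day 6 (adjusted p = 0.0309), and this was -0.01 after scaling (adjusted p = 0.937). In OCI-Ly7 it changed by 0.23 as given (adjusted p = 0.214) and by 0.38 after scaling (adjusted p = 0.0397). In TMD8 the call remained in 1 of 6 fits that left out a library, the fit without the second day 6 library. In OCI-Ly7 the scaled call was present in 0 of 6 (adjusted p of 0.0720 to 0.193).

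BACH2 was close to 0 in TMD8, at 0.0125 and 0.0360 FPKM, then 0.0234 and 0.0172, then 0 and 0.0147. The OCI-Ly7 libraries held 0.545 and 0.767, then 0.516 and 0.694, then 0.981 and 1.16. The 2 libraries of day 6 in OCI-Ly7 were above all 4 earlier ones. Fitted without the filter, the change at day 6 in OCI-Ly7 was 0.33 (SE 0.108), with an unadjusted p of 0.0438 and an adjusted p of 0.281 in limma. The values of TMD8 rest on few fragments, and no change was detectable there.

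SPIB, an ETS factor that partners IRF4, stood in TMD8 at 253 and 236 FPKM, then 190 and 192, then 179 and 212. In OCI-Ly7 the levels were 124 and 81.8, then 92.1 and 103, then 119 and 138. The treated libraries of TMD8 lay below day 0, and those of OCI-Ly7 overlapped day 0, whose 2 libraries were far apart. SPIB changed in TMD8 by -0.35 at day 3 (adjusted p = 0.0316) and -0.33 at day 6 (adjusted p = 0.0247), and scaling moved these to -0.05 (adjusted p = 0.799) and 0.04 (adjusted p = 0.689), the latter with the opposite sign. The day 6 call was lost without the first day 0 library (adjusted p = 0.120) or the first day 6 library (adjusted p = 0.0871). The day 3 call was lost without any of the day 0 or day 3 libraries (adjusted p of 0.0744 to 0.161).

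IRF4, the highest of the 10 in TMD8, stood there at 461 and 423 FPKM, then 362 and 348, then 244 and 301. Its OCI-Ly7 values were 77.2 and 82.6, then 88.9 and 79.1, then 70.7 and 65.4. In TMD8 the 3 days as given did not overlap and followed each other downward, and in OCI-Ly7 day 6 lay below day 0. After scaling, day 0 (383 and 371) and day 3 (377 and 371) of TMD8 overlapped, and day 6 (278 and 319) lay below both. The scaled change of IRF4 at day 3 there was -0.01 in limma (adjusted p = 0.972). IRF4 fell in TMD8 at day 6 by 0.70 on the log2 scale (SE 0.107, adjusted p = 0.00426), and by 0.34 after scaling (adjusted p = 0.0316). The first value passed in 6 of 6 fits that left out a library, and the scaled one in 1 of 6, the fit without the second day 6 library, with adjusted p of 0.0592 to 0.155 in the others. IRF4 in OCI-Ly7 changed by -0.23 (adjusted p = 0.189), and by -0.08 after scaling (adjusted p = 0.427). IRF4 was thus the factor of the 9 with a negative change at day 6 in both lines under both scalings.

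PRDM1, the plasma cell repressor, stood in TMD8 at 4.96 and 8.79 FPKM, then 9.36 and 8.51, then 6.36 and 6.80. For OCI-Ly7 the values were 2.47 and 2.93, then 2.86 and 2.63, then 3.47 and 3.31. The day 0 libraries of TMD8 were far apart and overlapped the later days, and in OCI-Ly7 both libraries of day 6 were above day 0. PRDM1 passed in neither line: the day 6 change was -0.01 in TMD8 (SE 0.221, adjusted p = 0.969; 0.30 after scaling, adjusted p = 0.375) and 0.25 in OCI-Ly7 (adjusted p = 0.181; 0.36 after scaling, adjusted p = 0.0616). Without the second day 0 library, the scaled change in TMD8 was 1.03 at day 3 (adjusted p = 0.0474) and 0.68 at day 6 (adjusted p = 0.0394), so the call of PRDM1 turns on a single library.

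PAX5 showed the widest split between the lines. It stood in TMD8 at 10.7 and 10.1 FPKM, then 7.08 and 7.84, then 4.45 and 5.35, with each day below the one before. OCI-Ly7 libraries gave 8.05 and 6.87, then 7.82 and 7.07, then 11.3 and 11.0, with day 6 above all earlier libraries. PAX5 fell in TMD8 at day 6 by 0.96 (SE 0.106, adjusted p = 0.00232), and by 0.64 after scaling (adjusted p = 0.00913). At day 3 it changed by -0.43 (adjusted p = 0.0294; -0.16 after scaling, adjusted p = 0.513). From day 3 to day 6 PAX5 fell further, by 0.52 (adjusted p = 0.0406) and after scaling by 0.48 (adjusted p = 0.0283); 2 of the 9 factors passed in that comparison under each scaling, both lower, where 7.84% and 11.7% of all genes passed and 4.47% and 5.1% as lower. In OCI-Ly7 PAX5 rose at day 6 by 0.52 (adjusted p = 0.0438), and by 0.66 after scaling (adjusted p = 0.0268).

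The calls of PAX5 did not all survive the loss of a library. The day 6 fall in TMD8 passed in 6 of 6 such fits as given (-1.07 to -0.84) and in 4 of 6 after scaling, lost when either library of day 0 was left out (adjusted p = 0.0614 and 0.0557). The day 6 rise in OCI-Ly7 passed in 1 of 6 as given, the fit without the second day 3 library, and in 0 of 6 after scaling (0.55 to 0.76, adjusted p of 0.0537 to 0.157). The fall from day 3 to day 6 in TMD8 passed in 1 of 6 under each scaling, the fit without the second day 6 library. The day 3 call in TMD8 was lost without any of the day 0 or day 3 libraries (adjusted p of 0.0818 to 0.161).

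EBF1, which acts with PAX5, stood in TMD8 at 11.9 and 10.9 FPKM, then 8.05 and 7.82, then 10.9 and 6.35. The values in OCI-Ly7 were 7.34 and 7.36, then 7.21 and 7.16, then 9.02 and 8.56. Day 3 of TMD8 lay below day 0, whereas the 2 libraries of day 6 spread from above day 3 to below it. EBF1 passed in TMD8 at neither day (-0.47, adjusted p = 0.105, and -0.41, adjusted p = 0.147; -0.08 at day 6 after scaling, adjusted p = 0.835). Without the first day 6 library the day 6 change was -0.76 as given (adjusted p = 0.00764), and without the second it was -0.06. After scaling the same fits gave -0.48 (adjusted p = 0.0233) and 0.33 (adjusted p = 0.0329). In OCI-Ly7 the change at day 6 was 0.23 (adjusted p = 0.131) as given and 0.36 after scaling (adjusted p = 0.0430), which passed in 0 of 6 fits that left out a library (adjusted p of 0.0648 to 0.202).

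POU2F2 had the largest rise of the 9 in OCI-Ly7. It stood there at 33.6 and 32.0 FPKM, then 30.5 and 29.4, then 53.8 and 62.4, with day 6 far above the 4 earlier libraries. In TMD8 it stood at 28.9 and 27.5, then 37.9 and 20.5, then 26.7 and 33.0, with overlap between the days. The rise in OCI-Ly7 was 0.80 (SE 0.108, adjusted p = 0.0345), and 0.95 after scaling (adjusted p = 0.0235). It passed without either day 3 library (2 of 6 fits) and not without a day 0 or a day 6 library (adjusted p of 0.0721 to 0.253), and after scaling in 0 of 6 (adjusted p of 0.0515 to 0.157). From day 3 to day 6 the change was 0.93 (adjusted p = 0.0548) as given and 0.95 after scaling (adjusted p = 0.0332). No factor passed there as given and 2 (POU2F2 and PAX5) after scaling, both higher, where 0.218% and 8.75% of all genes passed, and after scaling 4.23% as higher; neither of the 2 scaled calls held in any fit that left out a library (adjusted p of 0.0604 to 0.155). In TMD8 the change at day 6 was 0.07 (SE 0.266, adjusted p = 0.832) and 0.42 after scaling (adjusted p = 0.262); the scaled value passed, as higher, without either day 3 library (adjusted p = 0.0344 in each).

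In TMD8 POU2AF1 went up and then down, as did the mean of PRDM1 (6.87, 8.94 and 6.58 FPKM), which passed at neither step. POU2AF1 stood there at 2.00 and 1.86 FPKM at day 0, 3.43 and 3.10 at day 3, and 1.05 in both libraries of day 6, and the 3 days did not overlap. In OCI-Ly7 it was about 25 times as high at the start, at 49.3 and 47.2, then 42.3 and 34.7, then 46.8 and 41.1. POU2AF1 rose in TMD8 at day 3 by 0.54 (SE 0.0972, adjusted p = 0.0212; 0.75 after scaling, adjusted p = 0.0577). From day 3 to day 6 it fell by 1.06 (adjusted p = 0.0124), and by 1.04 after scaling (adjusted p = 0.0107). At day 6 against day 0 it changed by -0.52 (adjusted p = 0.00735; -0.30 after scaling, adjusted p = 0.0452). In OCI-Ly7 neither day passed (-0.33 and -0.13, adjusted p = 0.618 and 0.502). The fall from day 3 to day 6 passed in 4 of 6 fits that left out a library and was lost when either library of day 3 was left out (adjusted p = 0.0717 and 0.0527). The rise at day 3 was lost without any day 0 or day 3 library (adjusted p of 0.0738 to 0.132), and the day 6 call without the first day 0 library (adjusted p = 0.0591) and, after scaling, without any of the 6 (adjusted p of 0.0662 to 0.208).

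At day 3, 4 of the 9 factors passed in TMD8 (BCL6, PAX5 and SPIB lower, POU2AF1 higher), where 43.0% of all genes passed, 41.5% as lower and 1.5% as higher. IRF8 (-0.30, adjusted p = 0.0660), IRF4 (-0.32, adjusted p = 0.0551) and EBF1 did not pass there as given, but each passed without either day 6 library (adjusted p of 0.0224 to 0.0247). After scaling 0 of the 9 passed there, where 0.22% of all genes did, and 1321 of all 10456 genes had an unadjusted p under 0.05. In OCI-Ly7 at day 3, 0 of the 9 passed as given or after scaling, where 0.145% and 0.118% of all genes did. The unadjusted p was under 0.05 for 755 of 11016 genes as given there.

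Whether the lines differed in their change was tested directly, as the change in OCI-Ly7 minus that in TMD8. At day 6, 3 of the 9 factors passed, each higher in OCI-Ly7, where 24.7% of 9688 genes passed and 18.4% in that direction. After scaling 4 of the 9 passed, all in the same direction, beside 33.1% and 14.1%. The median difference was 0.64 for the 9 and 0.16 for all genes, and 0.44 and -0.02 after scaling. PAX5 differed by 1.48 (SE 0.153, adjusted p = 0.00122; 1.29 after scaling, adjusted p = 0.000568), and BCL6 by 0.97 (SE 0.156, adjusted p = 0.00564; 0.78 after scaling, adjusted p = 0.00207). Both passed in 12 of 12 fits that left out a library, under each scaling, at 1.37 to 1.59 for PAX5 and 0.83 to 1.10 for BCL6 as given.

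IRF8 differed by 0.59 (adjusted p = 0.0294; 0.39 after scaling, adjusted p = 0.0405). It passed in 6 of 12 such fits as given and not without any day 0 library or the first day 6 library of either line (adjusted p of 0.0727 to 0.0820). After scaling IRF8 passed in 2 of 12, those without the second day 6 library of TMD8 or of OCI-Ly7. POU2AF1 differed by 0.38 (adjusted p = 0.0944) as given and 0.32 after scaling (adjusted p = 0.0433), with 3 of 12. With a pseudocount of 0.1, POU2AF1 differed by 0.69 (adjusted p = 0.0186), and with an equal sum per library by 0.43 (adjusted p = 0.0377). An equal sum also took IRF4 past the threshold (0.50, adjusted p = 0.0397). As given, IRF4 (0.47, adjusted p = 0.0532), SPIB (0.67, adjusted p = 0.0779), EBF1 (0.64, adjusted p = 0.0991), POU2F2 (0.73, adjusted p = 0.127) and PRDM1 (0.26, adjusted p = 0.501) did not pass. Of these, SPIB passed without the first day 0 library of OCI-Ly7 (0.96, adjusted p = 0.0164), EBF1 without the first day 6 library of TMD8 (0.99, adjusted p = 0.00611) and POU2F2 without either day 3 library of TMD8 (adjusted p of 0.0220 and 0.0221). IRF4 passed without the second day 6 library of TMD8 (0.63, adjusted p = 0.0223) or either day 3 library of OCI-Ly7 (adjusted p of 0.0471 and 0.0473), and PRDM1 without the first day 0 library of TMD8 (0.62, adjusted p = 0.0477).

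At day 3 the difference between the lines passed for 0 of the 9 factors as given and for POU2AF1 after scaling, beside 0.103% and 0.0929% of all genes; 0.0619% passed as lower after scaling. The change of POU2AF1 from day 0 in OCI-Ly7 minus that in TMD8 was -0.94 after scaling (adjusted p = 0.0135). This passed in 10 of 12 fits, and was lost when either day 0 library of TMD8 was left out (adjusted p = 0.0532 and 0.0791). As given it was -0.86 (adjusted p = 0.190), and passed without the first day 3 library of OCI-Ly7 (adjusted p = 0.0361).

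**Figure D3:**
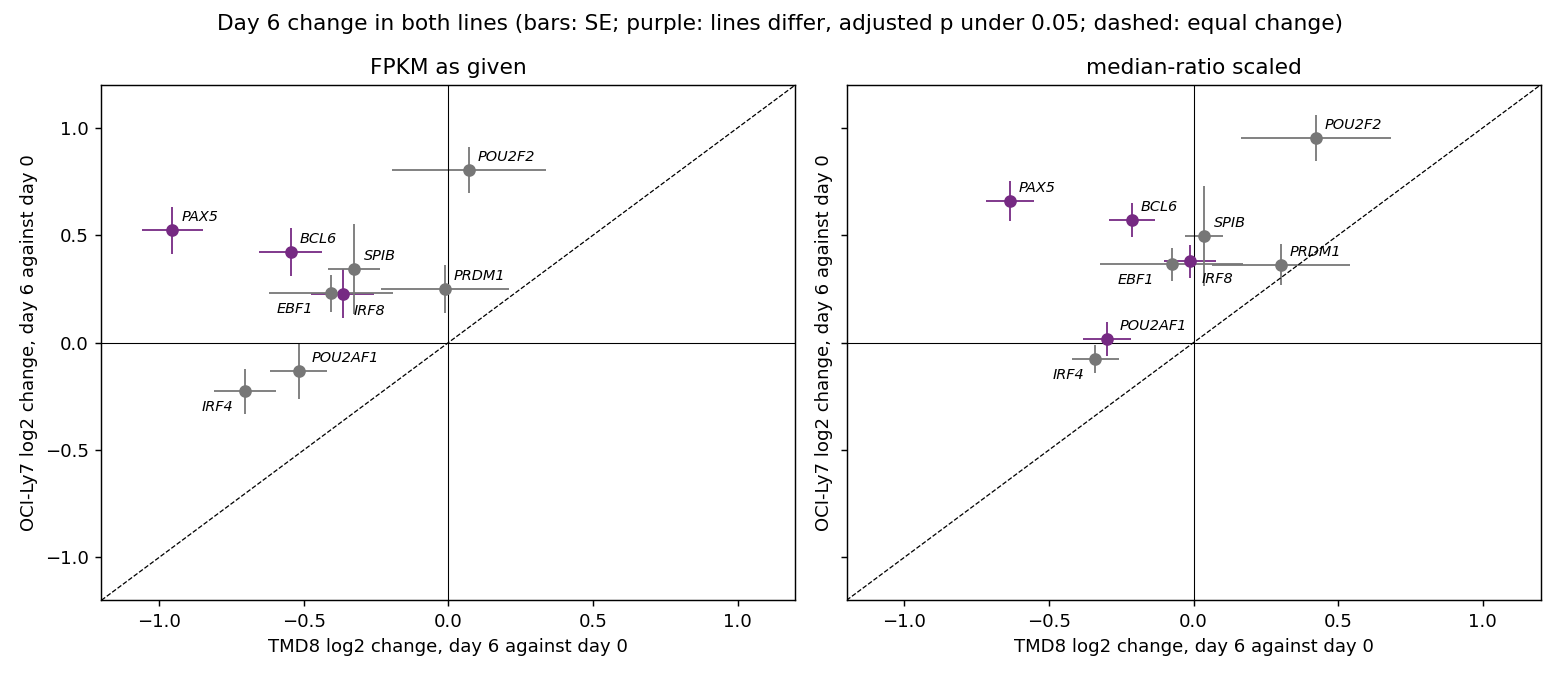
Log2 change at day 6 against day 0 in OCI-Ly7 (vertical) against that in TMD8 (horizontal) for the 9 tested factors, with bars of 1 SE; left as given, right after median-ratio scaling. Purple marks the factors whose change differed between the lines; all 9 lie above the dashed line of equal change, with PAX5 and BCL6 at the upper left in both panels.

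Ratios of 2 factors within a library do not depend on scaling. With 2 libraries against 2, an exact two-sided permutation test cannot go below 0.333, so ratios are given as values. BCL6 over IRF4 in OCI-Ly7 went on the log2 scale from -0.77 and -0.98 at day 0 to -0.31 and -0.12 at day 6, a change of 0.66 without overlap. In TMD8 the same ratio stood at -5.16 and -5.07, then -5.38 and -5.44, then -5.01 and -5.01. BCL6 thus remained far below IRF4 in TMD8 and came close to it in OCI-Ly7.

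PAX5 over IRF4 changed by 0.81 in OCI-Ly7 at day 6 and by -0.39 in TMD8, neither with overlap. PAX5 over PRDM1 in TMD8 stood at 1.11 and 0.20, then -0.40 and -0.12, then -0.52 and -0.34. PAX5 was therefore above PRDM1 in both TMD8 libraries of day 0 and below it in the 4 treated ones. In OCI-Ly7 that ratio overlapped between the days, at 1.70 and 1.23 at day 0 and 1.70 and 1.73 at day 6. POU2F2 over POU2AF1 was higher by 0.96 at day 6 in both lines, from 3.85 and 3.88 to 4.68 and 4.97 in TMD8 and from -0.55 and -0.56 to 0.20 and 0.60 in OCI-Ly7. IRF8 over IRF4 was higher by 0.46 in OCI-Ly7 and 0.33 in TMD8, and SPIB over IRF4 by 0.58 and 0.38, all without overlap.

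**Figure D4:**
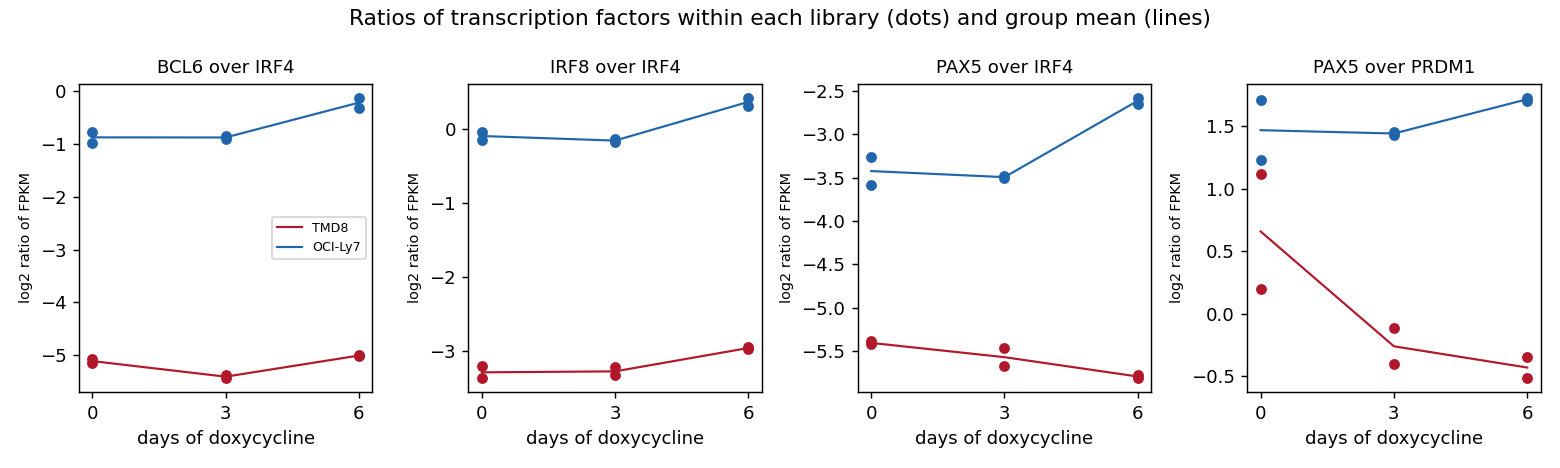
Log2 ratio of FPKM between 2 factors within each library (dots) against days of doxycycline, with lines through the group means; red is TMD8 and blue is OCI-Ly7. At day 6 BCL6 over IRF4 stands at -0.31 and -0.12 in OCI-Ly7, and PAX5 over PRDM1 lies below 0 in treated TMD8.

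The programmes around these factors were followed with 10 fixed lists, at day 6 against day 0 in limma, and named genes are those that passed with libraries that did not overlap. Many of their calls rest on the filter. With all rows tested, 34 of the 71 day 6 results for genes other than the factors lost their call. In OCI-Ly7 only 34 genes in all then passed at day 6, where 1252 did with the filter. After median-ratio scaling 8 of the 71 lost their call and 1 changed sign. Each count is to be read against the share of all tested genes: in TMD8 51.7% were lower and 3.89% higher (13.5% and 15.4% after scaling), and in OCI-Ly7 9.39% and 1.98% (8.05% and 6.71%). Of 17 tested germinal centre genes in TMD8, 10 were lower and 0 higher (6 lower and 2 higher after scaling), with a median of -0.54 beside -0.31 for all genes. The 58.8% lower as given (35.3% after scaling) stand beside 51.7% (13.5%) of all genes. SERPINA9, a protease inhibitor of germinal centre B cells, fell from 12.9 and 11.9 to 4.31 and 4.66 FPKM, by 1.29 (adjusted p = 0.00150; by 0.97 after scaling, adjusted p = 0.00342). BCL7A fell by 0.75 (adjusted p = 0.00282). P2RY8 fell by 1.12 (adjusted p = 0.00209), but it was listed at 0 in both TMD8 libraries of day 3 and throughout OCI-Ly7, so its estimate is uncertain. In OCI-Ly7, 2 of 17 germinal centre genes were lower and 0 higher (2 and 2 after scaling), with a median of -0.11 beside -0.13. They were ELL3 (-0.83, adjusted p = 0.0345) and MME, the surface antigen CD10 (-0.53, adjusted p = 0.0367).

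Of 22 tested genes that classify the activated type, 13 were lower and 2 higher in TMD8 (6 and 6 after scaling), and 0 lower and 3 higher in OCI-Ly7 (0 and 6). Their TMD8 median was -0.40 (-0.05 after scaling) and their OCI-Ly7 median 0.03 (0.13). Of these, 59.1% were lower in TMD8 as given, beside 51.7% of all genes, and 27.3% after scaling, beside 13.5%. CYB5R2 fell in TMD8 (-1.13, adjusted p = 0.00136), while MIR155HG, the host transcript of miR-155, rose there (0.80, adjusted p = 0.00352). CD44 (0.59, adjusted p = 0.0398) and FOXP1 (0.58, adjusted p = 0.0491), a transcription factor of activated lymphoma, rose in OCI-Ly7.

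Of 21 tested plasma cell genes, 8 were lower and 1 higher in TMD8 (2 and 4 after scaling), with a median of -0.20, and 4 were lower and 0 higher in OCI-Ly7 (3 and 0), with a median of -0.38 beside -0.13 for all genes. The share lower in TMD8, 38.1%, was under the 51.7% of all genes (9.5% beside 13.5% after scaling). XBP1, the driver of the secretory programme, passed in neither line (-0.20 in TMD8, adjusted p = 0.186; -0.41 in OCI-Ly7, adjusted p = 0.0624), and nor did SDC1, the plasma cell antigen CD138 (-0.04, adjusted p = 0.766; -0.63, adjusted p = 0.0795). MZB1, a chaperone of immunoglobulin assembly, fell in TMD8 (-1.05, adjusted p = 0.00128; -0.70 after scaling, adjusted p = 0.00378). In OCI-Ly7, CD27 (-0.56, adjusted p = 0.0376) and KDELR2 (-0.54, adjusted p = 0.0357) were lower. TXNDC5 was lower there too, from 24.0 and 31.2 to 0.175 and 0 FPKM, but it overlaps the row BLOC1S5-TXNDC5, which went from 0 to 1.12 and 20.2, so its reads may have been divided between the rows and the call is uncertain.

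Of the targets of PAX5 and EBF1 that define B cell identity, 10 of 17 tested were lower and 2 higher in TMD8 (3 and 4 after scaling; median -0.37, then -0.01), and 2 of 19 were lower and 2 higher in OCI-Ly7 (2 and 5; median -0.10, then 0.06). In TMD8 58.8% were lower beside 51.7% of all genes, and 17.6% beside 13.5% after scaling. CD22, an inhibitory coreceptor, fell in TMD8 from 41.8 and 41.3 to 18.7 and 20.3 FPKM (-1.06, adjusted p = 0.00136; -0.70 after scaling, adjusted p = 0.00342). TCF3 (E2A), a partner of EBF1 (-0.65, adjusted p = 0.00209), and CD37 (-0.64, adjusted p = 0.00209) fell there as well, whereas FCRLA (0.45, adjusted p = 0.0106) and CD40 (0.26, adjusted p = 0.0366) rose. In OCI-Ly7, CD37 (0.49, adjusted p = 0.0361) and VPREB3 (0.36, adjusted p = 0.0461) rose, and LEF1 (-0.58, adjusted p = 0.0357) and SWAP70 (-0.56, adjusted p = 0.0347) fell. CIITA, the MHC class II activator that PRDM1 is known to repress, passed in neither line (-0.33, adjusted p = 0.0817, and -0.03, adjusted p = 0.904).

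Genes known as repressed by BCL6 were lower in 12 and higher in 3 of 23 tested in TMD8 (2 and 9 after scaling; median -0.30, then 0.05), and 2 and 2 of 16 in OCI-Ly7 (2 and 3; median -0.03, then 0.07). The 52.2% lower in TMD8 were at the 51.7% of all genes, and after scaling 39.1% were higher beside 15.4% and 8.7% lower beside 13.5%. CCL3, a chemokine, rose in TMD8 from 5.46 and 5.77 to 13.9 and 16.8 FPKM (1.30, adjusted p = 0.00167), and CD274 (PD-L1) by 0.35 (adjusted p = 0.0312), while BCL2 (-1.06, adjusted p = 0.00158) fell. GPR183, a migration receptor that BCL6 is known to repress, stood at 18.1 and 18.0 in TMD8 at day 0 and 17.3 and 20.8 at day 6 (0.07, adjusted p = 0.572; 0.41 after scaling, adjusted p = 0.0141), and at 0.130 or less in OCI-Ly7. Genes known as repressed by Blimp-1 were lower in 6 and higher in 1 of 11 in TMD8 (3 and 2 after scaling; median -0.32, then 0.01), and 2 and 0 of 11 in OCI-Ly7 (2 and 3; median 0.02, then 0.17). In TMD8 54.5% were lower beside 51.7% of all genes (27.3% beside 13.5% after scaling). MYC, which Blimp-1 is known to repress, fell in both lines (-0.85, adjusted p = 0.00383, and -0.70, adjusted p = 0.0345), and PCNA rose in TMD8 (0.37, adjusted p = 0.00653) and fell in OCI-Ly7 (-0.48, adjusted p = 0.0385), with a difference between the lines of -0.84 (adjusted p = 0.00300).

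Among 14 tested corepressors of BCL6 in TMD8, 10 were lower and 0 higher (4 and 1 after scaling; median -0.49, then -0.14), and in OCI-Ly7 1 of 16 was lower and 1 higher (1 and 2; median -0.05, then 0.09). The 71.4% lower in TMD8 stand beside 51.7% of all genes, and 28.6% beside 13.5% after scaling. NCOR1, a core of the deacetylase complex that BCL6 recruits, stood in OCI-Ly7 at 7.21 and 7.59 FPKM, then 11.2 and 10.4, then 14.4 and 15.0. It rose there by 0.90 (SE 0.0925, adjusted p = 0.0345; 1.04 after scaling, adjusted p = 0.0179), and fell in TMD8 by 0.58 (adjusted p = 0.00945; by 0.24 after scaling, adjusted p = 0.0813). The difference between the lines for NCOR1 was 1.48 (adjusted p = 0.00122). TBL1X, another subunit, fell in TMD8 (-0.77, adjusted p = 0.00254), and HDAC1 in OCI-Ly7 (-0.42, adjusted p = 0.0476).

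Among partners of IRF4, IRF8 and SPIB, 11 of 18 tested were lower and 1 higher in TMD8 (5 and 2 after scaling; median -0.35, then -0.03), and 0 of 15 passed in OCI-Ly7 (0 and 2; median 0.14, then 0.27). Lower in TMD8 were 61.1%, beside 51.7% of all genes (27.8% beside 13.5% after scaling). IKZF1 (Ikaros) fell in TMD8 (-0.76, adjusted p = 0.00244), and BATF3, an AP-1 partner of IRF4, rose (0.47, adjusted p = 0.00581). ETS1 in TMD8 went from 18.8 and 17.7 to 4.68 and 3.67 at day 3 and 8.03 and 9.80 at day 6 (-0.96, adjusted p = 0.00337 at day 6). BACH1, the relative of BACH2, fell in TMD8 (-0.63, adjusted p = 0.00369; -0.35 after scaling, adjusted p = 0.0273) from 4.33 and 4.48 to 2.38 and 2.60 FPKM. The list of BACH2 relatives and oxidant response genes was lower in 10 and higher in 0 of 15 in TMD8 (3 and 2; median -0.39, then -0.08) and 2 and 0 of 14 in OCI-Ly7 (2 and 1; median -0.26, then -0.11), where TXNRD1 (-0.88, adjusted p = 0.0345) and NFE2L2 (-0.50, adjusted p = 0.0461) fell. The share lower in TMD8 was 66.7% beside 51.7% of all genes, and 20.0% beside 13.5% after scaling.

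Of 13 tested close relatives of the factors, 8 were lower and 0 higher in TMD8 (4 and 1 after scaling; median -0.41, then -0.16), and 0 passed in OCI-Ly7 (0 and 2; median 0.08, then 0.22). In TMD8 61.5% were lower beside 51.7% of all genes, and 30.8% beside 13.5% after scaling. POU2F1 (Oct-1), the relative of POU2F2, fell in TMD8 from 3.58 and 3.32 to 1.58 and 2.09 FPKM (-0.65, adjusted p = 0.00662). IRF7 fell there from 2.47 and 2.39 to 0.700 and 1.12 (-0.85, adjusted p = 0.00471), and PRDM2 from 10.8 and 10.3 to 5.57 and 6.75 (-0.69, adjusted p = 0.00385). EBF2 and EBF3 were listed at 0 in all 12 libraries. Of the genes chosen from the lists by rule in OCI-Ly7, 20 of 21 lost their call in each fit that left out a day 0 or day 6 library. In TMD8, 10 of 41 lost it without the first day 0 library and 2 to 4 without any other.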

How the data were processed

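RNA was sequenced from 12 libraries, 2 for each of days 0, 3 and 6 in TMD8 and OCI-Ly7. The submitters' processing notes name HISAT, StringTie and the build hg19, without versions. The authors deposited 1 table of 25369 rows per line, holding FPKM for every library, and 0 per-sample columns were left unused. Groups come from the labels' titles; the labels' treatment protocol names other days than the titles, which were followed.

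Genes averaging 1 FPKM or more across a line's libraries were transformed to log2(FPKM + 1) and tested in limma 3.58.1 (R 4.3.3), with a mean-dependent trend, 3 residual degrees of freedom per line and a Benjamini-Hochberg threshold of 0.05. The difference between the lines came from a fit of the 12 libraries. Alternatives were median-ratio scaling, rescaling to an equal sum (over all rows, or over rows other than ribosomal, small RNA and histone genes), a pseudocount of 0.1, no filter, a mean of at least 5, no trend, a replicate block, a fit of only the 2 days compared, and each library left out in turn; a lone remaining library was taken to vary as the other groups do. Leaving out a library after scaling was added after the data were seen. The test was checked on simulated data in which no whole library was shifted against the others. That check therefore does not bear on the choice of scaling.

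The members and the 14 gene lists were chosen with earlier results of these data known. Genes named are the members, PRMT5, XBP1, SDC1, CIITA, MYC and GPR183, and of each list and line up to 3 genes in each direction with the largest change at day 6 against day 0, past the threshold and without overlap of libraries; markers and relatives are named with their levels. Not every gene so chosen is printed, and some results are not reported here. Promoter windows are from RefSeq on GRCh38.p14, and exon overlap between rows was read from GENCODE 29, where no other row overlapped an exon of the members.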

Additional observations from a re-analysis of the deposited data

Results flagged for a closer look

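The change from day 0 to day 6 differed between OCI-Ly7 and TMD8, by a test of the difference itself in limma, for 3 of the 9 tested factors, where 24.7% of all genes passed (33.1% after median-ratio scaling). PAX5 differed by 1.48 on the log2(FPKM + 1) scale, with both day 6 libraries below both of day 0 in TMD8 and above both in OCI-Ly7. BCL6 differed by 0.97, with the same arrangement of libraries. IRF8 differed by 0.59, again with the same arrangement, and this call did not hold in 6 of the 12 fits that left out a library. RNA45S5 went from 5222 and 7950 FPKM to 20280 and 17581 in TMD8 over these days and from 11163 and 10374 to 16130 and 20185 in OCI-Ly7, and its part in these differences was not tested; after scaling the differences were 1.29 for PAX5, 0.78 for BCL6 and 0.39 for IRF8, all past the threshold with every library in the fit. For IRF8 the scaled difference passed in 2 of 12 fits that left out a library, and its scaled libraries in TMD8 overlapped (37.2 and 40.2 at day 0, 35.6 and 41.4 at day 6), with a change of -0.01.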

How the results depend on the processing

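The depth of the libraries is known only in relative terms, and with 2 libraries per group and 3 residual degrees of freedom per line, the p-values are sensitive to single libraries. Of 72 results (9 factors in 8 comparisons), 58 kept their side of the threshold after median-ratio scaling and 61 with an equal sum per library. With an equal sum that left out ribosomal, small RNA and histone rows, 57 kept it. With a pseudocount of 0.1 this held for 71, without the trend for 72 and without a filter for 60. Results past the threshold in both fits also kept their direction. Those past it in neither were counted as kept even where the sign changed. An example is PRDM1 in TMD8 at day 6, at -0.01 as given and 0.30 after median-ratio scaling. Causes of the changes below were not tested.

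Median-ratio scaling gave 23 genes and 0 factors past the threshold in TMD8 at day 3, where 4492 and 4 passed as given, and 3020 genes and 3 factors at day 6, where 5816 and 6 did. It gave 5 factors in OCI-Ly7 at day 6 (2 as given), 964 genes and 2 factors from day 3 to day 6 there (24 and 0), and 1 factor in the difference between the lines at day 3 (0). An equal sum gave 36 genes and 0 factors in TMD8 at day 3, 1324 genes from day 3 to day 6 there (820), 556 genes and 1 factor from day 3 to day 6 in OCI-Ly7, and 5 factors in the day 6 difference (3). Without ribosomal, small RNA and histone rows these were 51 genes and 1 factor, 1846 genes, 1211 genes and 3 factors, and 5 factors; it also gave 3093 genes in TMD8 at day 6, 5 factors in OCI-Ly7 at day 6 and 1 factor in the day 3 difference. No filter gave 614 genes and 0 factors in TMD8 at day 3, 3374 and 3 at day 6, and 80 and 0 between them, 25 genes in OCI-Ly7 at day 3 (16), 34 and 0 factors at day 6 (1252 genes), 42 genes between them, and 111 in the day 3 difference (10). A mean of at least 5 gave 1 factor from day 3 to day 6 in each line and 1391 genes in the day 6 difference (2396). The 2 compared days alone gave 7 factors in TMD8 at day 3, and 200 genes and 1 factor from day 3 to day 6.

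After median-ratio scaling the day 6 change in TMD8 turned positive for SPIB (0.038) and PRMT5 (0.10). With a library also left out, it was positive for SPIB in 5 of 6 fits (0.048 and 0.027 without the first and second day 0 library, 0.038 without either day 3 library and 0.10 without the first day 6 library), for IRF8 at 0.044 and 0.10 (without the second day 0 or first day 6 library), for PRDM1 at 0.68 (without the second day 0 library) and for EBF1 at 0.33 (without the second day 6 library).

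Leaving out each library in turn gave 30 to 5763 genes and 0 to 7 factors in TMD8 at day 3, 2447 to 5891 and 2 to 6 at day 6, and 38 to 422 and 0 to 3 between them. In OCI-Ly7 it gave 13 to 29 genes at day 3, 17 to 1225 genes and 0 to 2 factors at day 6, and 27 to 48 genes between them, with 0 factors at day 3 and between them. The difference between the lines ranged over 7 to 32 genes and 0 to 1 factors at day 3, and 1051 to 2849 and 2 to 5 at day 6.

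The labels' replicate numbers were not taken to pair the libraries, since the differences between replicates correlated at -0.147 to 0.08 across days in TMD8 and -0.08 to 0.133 in OCI-Ly7. A replicate block gave 13 genes and 0 factors in TMD8 at day 3, 58 and 1 from day 3 to day 6, 733 and 1 in OCI-Ly7 at day 6, and 5 genes in the day 3 difference. With the block, 66 of the 72 results were the same and 6 were lost: BCL6, PAX5, POU2AF1 and SPIB in TMD8 at day 3, and PAX5 from day 3 to day 6 in TMD8 and at day 6 in OCI-Ly7.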

Other observations

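Some genes around the factors changed in opposite directions in the lines at day 6 as given, and limma was used to test the OCI-Ly7 change minus the TMD8 change. CD37, a tetraspanin of B cells, differed by 1.14 (adjusted p = 0.000937), from 132 and 130 to 81.9 and 84.9 FPKM in TMD8 and from 387 and 424 to 558 and 583 in OCI-Ly7. IL10RA, the receptor of interleukin 10, differed by 0.81 (adjusted p = 0.00631), from 25.9 and 24.4 to 18.8 and 21.8 in TMD8 and from 22.8 and 23.5 to 31.3 and 35.8 in OCI-Ly7. After scaling the difference of CD37 was 0.93 (adjusted p = 0.00112) and that of IL10RA 0.61 (adjusted p = 0.00586), but the change of IL10RA in TMD8, -0.30 as given, was then 0.05.

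PRDX4, a peroxiredoxin of the secretory pathway, went the other way, with a difference of -0.90 (adjusted p = 0.0121; -1.11 after scaling, adjusted p = 0.00813). It stood at 57.7 and 59.8 FPKM at day 0 and 70.0 and 65.8 at day 6 in TMD8, and at 46.6 and 58.4 and then 34.1 and 29.7 in OCI-Ly7. MYC fell in both lines, and its difference of 0.15 did not pass (adjusted p = 0.560).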
